A study of Mus musculus with 6 samples.

Results

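Spi1, Cebpa, Cebpb, Cebpd, Maf, Bhlhe40, Id2, Sox4 and Runx1 are transcription factors of the myeloid lineage, the branch of blood formation that gives monocytes, macrophages, dendritic cells and granulocytes. All 9 were measured, by 30 of the 45037 probe sets that remained on an Affymetrix mouse array without its controls. The genes were chosen by name, with earlier results of these data known, and every probe set annotated to one of them was taken. The knockout (KO) group was 3 macrophage cultures from mice deficient in Fabp5, which encodes the lipid-binding protein E-FABP. The wild-type (WT) group was 3 cultures from mice with intact Fabp5. The strain label is C57BL/6 in both groups, and donors of either genotype were 6 to 8 weeks old. In both groups, bone marrow spent 7 days in GM-CSF (20 ng/ml), was replated in 12-well plates, and then shared its medium for 18 h with an insert of E0771, a breast carcinoma line of mouse origin. Every culture had therefore met tumour cells, and only the effect of genotype was compared. The submitters title the cultures as biological replicates, but the sources used here name neither the knockout allele nor whether each culture had a mouse of its own, so p-values speak of the spread between these cultures. RNA was taken from the whole culture, so fewer cells of a type and less RNA per cell cannot be told apart.

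PU.1, the product of Spi1, is an ETS-family factor that works with the C/EBP proteins to set up the macrophage and granulocyte programmes. C/EBP alpha drives early myeloid commitment, C/EBP beta serves macrophage activation and emergency granulocyte production, and C/EBP delta is induced by inflammatory signals. c-Maf, a basic leucine zipper protein encoded by Maf, acts late in macrophages and activates the interleukin-10 gene. Bhlhe40 is a basic helix-loop-helix repressor that restrains interleukin-10, and Id2 is a helix-loop-helix protein that cannot bind DNA and blocks E proteins. Runx1 binds DNA together with Cbfb and is needed for blood stem cells to form. Sox4 is a high-mobility-group box factor of progenitors and of B cell precursors.

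The data are log2 intensities, 1 per probe set and array, so a difference of 1 is a doubling. Probe sets differ in how brightly they read, so single genes are not ranked by level, and 5.63, the median of all values, serves only as a rough line between bright and dim. The targeted gene separated the genotypes: the brighter Fabp5 probe set read 8.13, 8.31 and 8.39 on the KO arrays, against 14.47, 14.41 and 14.45 on the WT arrays. Macrophage markers were bright in both groups, with Csf1r, the receptor for the macrophage growth factor CSF-1, at 13.87 ± 0.02 in KO and 13.89 ± 0.02 in WT (mean ± SD, n = 3 each). All 10 macrophage markers lay above that median, but so did 11 of 13 dendritic cell and 10 of 12 neutrophil markers, 5 of 9 mast cell and basophil markers, 4 of 7 progenitor markers and 4 of 10 fibroblast markers. The count was 0 of 6 for B cell, 2 of 5 for T cell, 2 of 5 for NK cell, 3 of 6 for erythroid and megakaryocyte and 3 of 8 for epithelial and tumour cell markers. Array medians lay between 5.60 and 5.64, and Pearson's r between arrays, over probe sets, was 0.9914 to 0.9977. With 3 arrays per genotype, precision is limited, and 0.1 is the smallest two-sided p that an exact permutation test allows. Tests are therefore limma's, fitted over all 45037 probe sets with Benjamini-Hochberg adjustment and a threshold of 0.05. Of these, 2.06% were higher in KO and 1.70% lower.

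The promoter of Sox4 is shown because Sox4 is the factor that changed most, and the upstream promoter of Runx1 because it held the only match to any motif searched. Both come from RefSeq's annotation of GRCm38.p6, run from 250 bases before to 50 bases after the start site, and are written on the gene's own strand. The Sox4 window lies at chr13:28953650-28953949 on the minus strand, and the Runx1 window at chr16:92826025-92826324, also on the minus strand. Capitals mark the match in Runx1.
Sox4: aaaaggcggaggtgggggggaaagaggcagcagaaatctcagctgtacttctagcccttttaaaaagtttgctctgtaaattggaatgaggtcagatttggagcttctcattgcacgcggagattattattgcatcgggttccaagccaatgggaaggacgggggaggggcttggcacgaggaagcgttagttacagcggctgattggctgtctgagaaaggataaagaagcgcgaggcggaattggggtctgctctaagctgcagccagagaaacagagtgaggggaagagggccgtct
Runx1: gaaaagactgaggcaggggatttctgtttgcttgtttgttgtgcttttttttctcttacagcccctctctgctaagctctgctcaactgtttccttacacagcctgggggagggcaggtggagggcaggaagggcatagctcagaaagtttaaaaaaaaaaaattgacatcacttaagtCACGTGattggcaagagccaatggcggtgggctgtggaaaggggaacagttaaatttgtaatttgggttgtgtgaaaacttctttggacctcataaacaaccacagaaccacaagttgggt

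The table of promoters held 6 windows for 5 of the factors, Cebpa, Cebpb, Id2, Sox4 and Runx1, the last with 2. On both strands, 7 motifs were searched: GAAANNGAA, part of the interferon-stimulated element, TTCNNNGAA for STAT proteins, GGGNNTTCC for NF-kB, TGACGTCA for CREB proteins, CACGTG for basic helix-loop-helix proteins such as Bhlhe40, GAGGAAGT for PU.1 and TTGCNNAA for C/EBP proteins. CACGTG was found in 1 of the 6 windows, against 7.15% of all 32851 windows in the table. The other motifs were in 0 of the 6, against 1.79% (TGACGTCA) to 10.8% (TTGCNNAA) of all windows. The windows differed in base composition: the Runx1 window shown was 45.0% G and C with 2 CpG dinucleotides, the other Runx1 window 69.0% with 35, and the Sox4 window 52.0% with 12. A match is a description of letters, and its absence says nothing of binding elsewhere.

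Across the 30 probe sets, 2 rose in KO, both of Sox4, and 1 fell, of Maf, against 3.75% of all probe sets called in either direction. Means were higher in KO at 15 probe sets and lower at 15. The KO and WT values did not overlap at 6 of the 30, against 26.9% of all probe sets, and 7 of the 30 had an unadjusted p under 0.05, against 20.2%. The calls lay in 2 of the 9 genes, while the 16 probe sets of the other 7 genes gave no call.

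**Figure D1:**
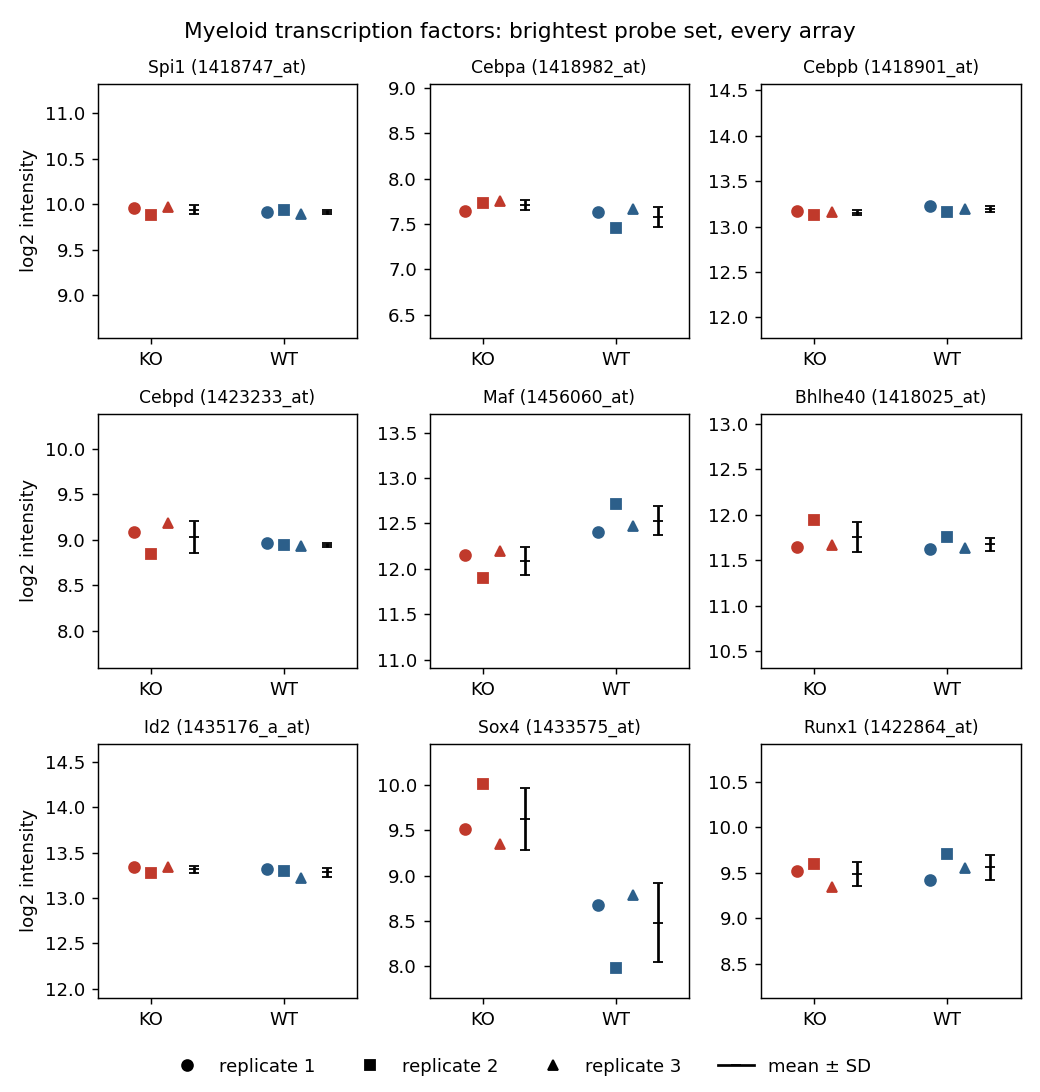
Log2 intensity on every array for the brightest probe set of each of the 9 factors; markers are single arrays, bars are mean ± SD (n = 3), and every panel spans the same range of log2 units. Sox4 lies higher on all 3 KO arrays and Maf lower on all 3 KO arrays, while the genotypes overlap in the other 7 panels.

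Sox4 was higher in cultures without E-FABP. Its brightest probe set, 1433575_at, read 9.52, 10.01 and 9.35 on KO arrays 1 to 3, against 8.67, 7.98 and 8.79 on WT arrays 1 to 3. Every KO value lay above every WT value, with KO replicate 2 the highest array and WT replicate 2 the lowest. The means were 9.62 ± 0.34 in KO and 8.48 ± 0.43 in WT (SD, n = 3 each), a difference of 1.14 (SE 0.22, 2.21-fold, 95% interval 0.64 to 1.64, limma adjusted p = 0.0305). Of all 45037 probe sets, 11 had a more positive difference.

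A further Sox4 probe set, 1419156_at, read 6.54, 6.94 and 6.33 in KO, against 5.76, 5.59 and 5.95 in WT. It too separated the genotypes and placed replicate 2 at both ends. The difference was 0.84 (SE 0.15, 1.79-fold, limma adjusted p = 0.0251). The next, 1419155_a_at, read 7.11, 7.15 and 6.79 in KO, against 6.83, 6.49 and 6.53 in WT. Here WT replicate 1 overlapped the KO values, and the difference of 0.40 (SE 0.12) did not pass (limma adjusted p = 0.104).

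The other 5 Sox4 probe sets were dim, with means over the 6 arrays under the median of all values. Their differences ran from -0.13 (1455867_at) to 0.11 (1458332_x_at), with limma adjusted p between 0.476 and 0.897, and their genotypes overlapped. The calls on Sox4 thus come from 2 of the 3 probe sets that read above that median. Both calls were lost without KO replicate 1, KO replicate 2, WT replicate 1 or WT replicate 2 (limma adjusted p of 0.0575 to 0.0909 for 1433575_at and 0.0541 to 0.101 for 1419156_at), with differences of 0.89 to 1.30 and 0.67 to 0.98 over all 6 omissions. With the mean of all 8 probe sets in its place, the difference was 0.30 (limma adjusted p = 0.0688).

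Maf was lower in KO at all 6 of its probe sets by mean, and 1 of them passed the test. That probe set, 1444073_at, read 6.84, 6.71 and 7.10 in KO, against 7.37, 7.58 and 7.26 in WT. The 3 KO values lay under the 3 WT values. The means were 6.88 ± 0.19 in KO and 7.40 ± 0.17 in WT (SD, n = 3 each). The difference was -0.52 (SE 0.11, 1.43-fold, 95% interval -0.78 to -0.26, limma adjusted p = 0.0444).

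The brightest Maf probe set, 1456060_at, read 12.16, 11.90 and 12.20 in KO, against 12.41, 12.71 and 12.47 in WT. The genotypes did not overlap, and its difference of -0.45 (SE 0.11, 95% interval -0.68 to -0.21) missed the threshold (limma adjusted p = 0.0536). At 1437473_at the values were 8.54, 8.22 and 8.25 in KO, against 8.53, 9.34 and 9.02 in WT. WT replicate 1 lay within the KO values, and the difference was -0.63 (SE 0.18, limma adjusted p = 0.0923). The remaining 3 probe sets, 1447849_s_at, 1435828_at and 1447945_at, gave -0.18, -0.14 and -0.04 (limma adjusted p of 0.448 to 0.819) with overlapping genotypes.

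KO replicate 2 was the lowest array and WT replicate 2 the highest at all 6 Maf probe sets, the reverse of the ends seen at the 2 called Sox4 probe sets. The call on Maf was lost without any array except KO replicate 3 (limma adjusted p of 0.0558 to 0.138 where lost), with differences of -0.62 to -0.43. For 1456060_at, the fit on above-median probe sets gave a call (limma adjusted p = 0.0380), as did eBayes with trend and robust settings (0.0408). It gave none with the replicate block (0.118), with a floor at the 20th percentile (0.170) or with any array left out (0.0665 to 0.151), and the mean of all 6 Maf probe sets differed by -0.33 (limma adjusted p = 0.0771).

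**Figure D2:**
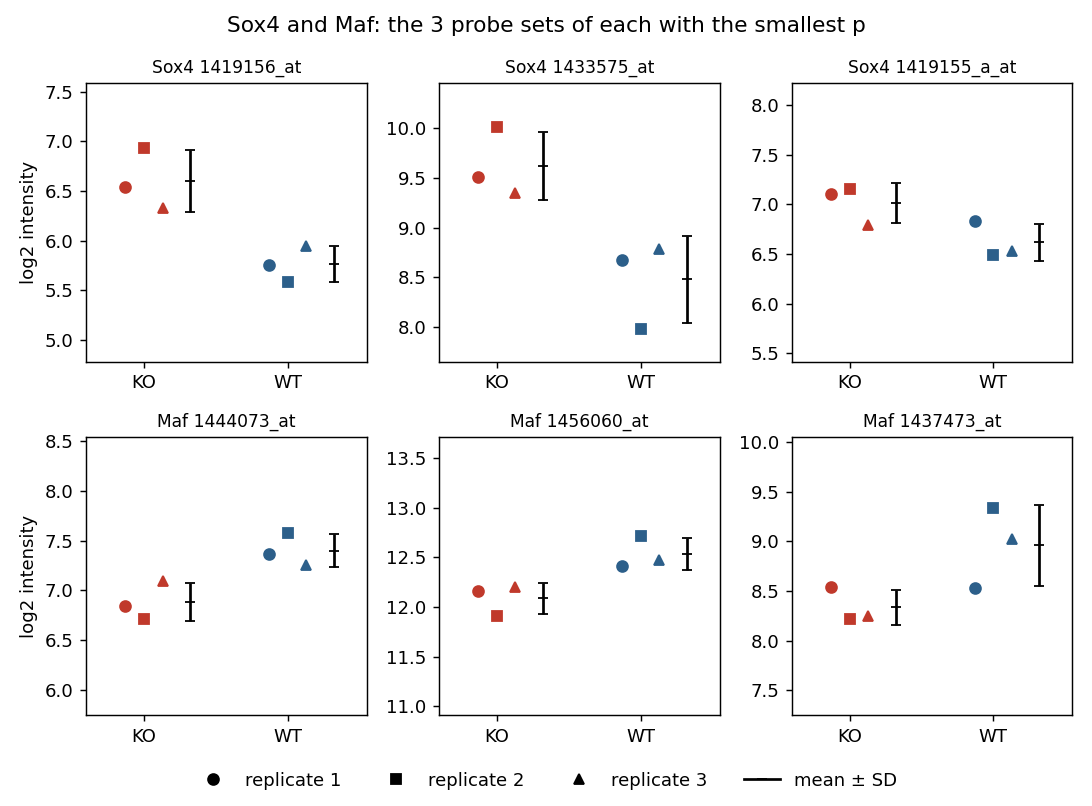
Log2 intensity on every array for the 3 Sox4 and the 3 Maf probe sets with the smallest p; markers are single arrays and bars are mean ± SD (n = 3). KO replicate 2 is the highest array at all 3 Sox4 probe sets shown and the lowest at all 3 Maf probe sets shown, and WT replicate 2 is at the opposite end.

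Cell type markers differed between the same arrays. Over all 18193 genes, 4.90% were called (2.85% higher, 2.05% lower), 23.4% had an unadjusted p under 0.05 (15.2% higher, 8.15% lower), and the median difference was 0.01. Of 13 dendritic cell markers, 10 had a higher mean in KO and 2 rose, Batf3 and the actin-bundling protein gene Fscn1, with a list median of 0.33. Limma's unadjusted p was under 0.05 at 7 of the 13, all higher. Of 12 neutrophil markers, 10 had a lower mean in KO and 0 were called by limma, although an unadjusted p under 0.05 was reached by 8 that were lower and 1 that was higher; the median was -0.44. Of 10 fibroblast and stromal markers, 9 had a lower mean in KO and 4 fell, Col1a2, Dcn, Col3a1 and Bgn, with a median of -0.38. Limma's unadjusted p was under 0.05 at 7 of these 10, all lower. Col3a1 was dim, with a KO mean of 3.79, under the 20th percentile of all values (4.07). Of 10 macrophage markers, 7 had a lower mean in KO, the receptors Fcgr1 and Mertk fell and the median was -0.04. Limma's unadjusted p was under 0.05 at 2 lower and 1 higher macrophage markers. Of 9 mast cell and basophil markers, Hdc, the histamine-forming enzyme gene, fell by 0.40 (limma adjusted p = 0.0244), and the median was -0.01. Of 7 progenitor markers limma called 0, 4 had a higher and 3 a lower mean in KO, and the median was 0.005. An unadjusted p under 0.05 was reached by 2, both higher, the growth factor receptor genes Kit (0.59, limma adjusted p = 0.0669) and Flt3 (0.33, limma adjusted p = 0.219). Kit is also in the mast cell list and Flt3 in the dendritic cell list. The epithelial, erythroid, T cell, B cell and NK cell lists had 0 calls by limma, with 1 epithelial and 1 B cell marker lower at an unadjusted p under 0.05.

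Mean marker levels showed which arrays carried these shifts. Dendritic cell markers averaged 8.67 to 9.11 on the KO arrays, against 8.39 to 8.64 on the WT arrays, and neutrophil markers 8.68 to 9.26, against 9.31 to 9.54. Fibroblast markers averaged 5.01 to 5.07 on the KO arrays, against 5.42 to 5.56 on the WT arrays. Macrophage markers averaged 11.79 to 11.96 on the KO arrays, against 12.02 to 12.08 on the WT arrays. Progenitor markers averaged 5.68 to 5.82, against 5.55 to 5.70, so the 2 ranges overlapped. As mean deviations from each marker's average, KO replicate 2 stood at 0.43 for dendritic cell and -0.54 for neutrophil markers, the highest and the lowest of the 6 arrays, and at 0.14 for progenitor markers, also the highest. WT replicate 2 stood at -0.29 for dendritic cell markers, the lowest array. For macrophage markers, KO replicate 2 was the lowest array (-0.17) and WT replicate 2 the highest (0.12). Replicate 2 of either genotype was thus at the ends for the 2 called Sox4 probe sets and all 6 Maf probe sets. The same held for the dendritic cell and macrophage markers. Fibroblast markers differed, with KO replicate 1 the lowest array (-0.26) and WT replicate 3 the highest (0.29). Over all 8 Sox4 probe sets, KO replicate 2 was the highest array at 4 and WT replicate 2 the lowest at 3. WT replicate 2 was at neither end for the neutrophil (0.10) and progenitor (-0.05) markers. The part of cell mixture in the Sox4 and Maf results was not tested.

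**Figure D3:**
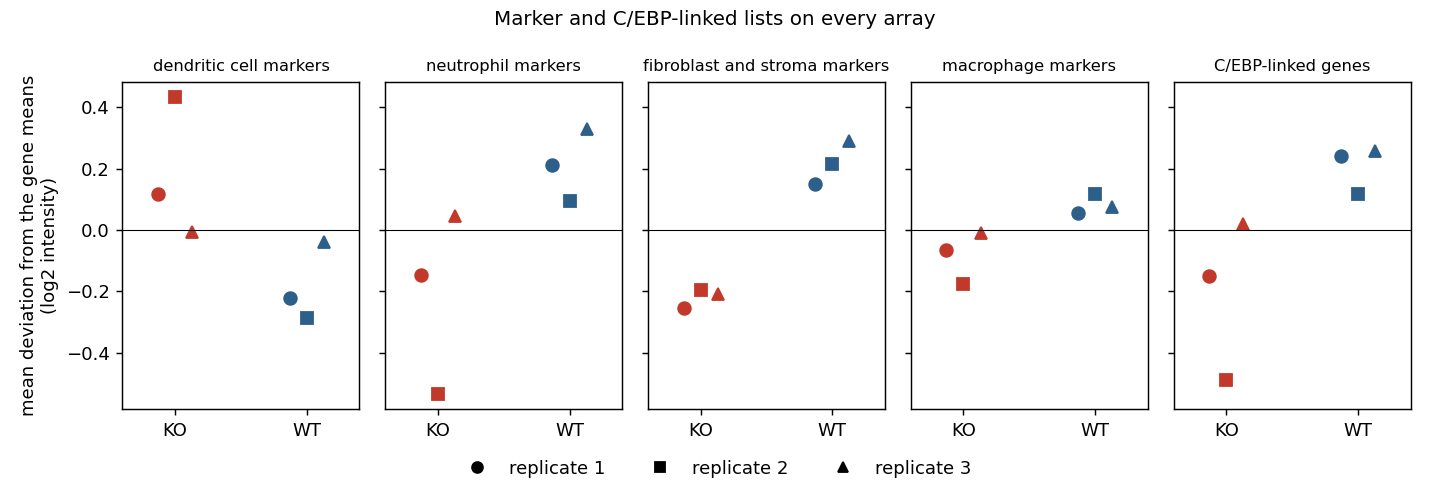
Mean deviation from the gene means, in log2 intensity, for 4 marker lists and for the genes linked to C/EBP proteins; each marker is 1 array. KO replicate 2 is at 0.43 for dendritic cell markers, -0.54 for neutrophil markers and -0.49 for the C/EBP-linked genes.

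Spi1 and the C/EBP genes gave no call. Spi1, the gene of PU.1, read 9.96, 9.88 and 9.97 in KO, against 9.91, 9.94 and 9.89 in WT. The values interleaved within 0.1 log2 units, and the difference was 0.02 (95% interval -0.12 to 0.17, limma adjusted p = 0.884). Cebpa read 7.64, 7.73 and 7.75 in KO, against 7.63, 7.46 and 7.66 in WT. KO replicate 1 lay among the WT values, and the difference was 0.13 (95% interval -0.05 to 0.30, limma adjusted p = 0.411).

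Cebpb at its brightest probe set, 1418901_at, read 13.17, 13.13 and 13.16 in KO, against 13.23, 13.16 and 13.19 in WT. The difference was -0.04 (95% interval -0.18 to 0.10, limma adjusted p = 0.789), and its dimmer probe set gave -0.06. Cebpd at 1423233_at read 9.08, 8.84 and 9.18 in KO, against 8.96, 8.94 and 8.93 in WT. The KO values lay on both sides of the WT values, and the difference was 0.09 (95% interval -0.11 to 0.30, limma adjusted p = 0.635). Its dimmer probe set, 1456605_at, had a mean of 5.75 over the 6 arrays, above the median of all values. It read 5.85, 5.91 and 5.85 in KO, against 5.57, 5.50 and 5.84 in WT. The genotypes did not overlap, with KO replicate 1 just above WT replicate 3. The difference was 0.24, and its 95% interval of 0.03 to 0.44 lay above 0. After adjustment it did not pass (limma unadjusted p = 0.0308, adjusted p = 0.193).

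Bhlhe40, measured by 1 probe set, gave no call. It read 11.65, 11.94 and 11.67 in KO, against 11.62, 11.76 and 11.64 in WT. KO replicate 2 was the highest array, the genotypes overlapped, and the difference was 0.08 (95% interval -0.13 to 0.29, limma adjusted p = 0.690).

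Id2 had 3 probe sets and none was called. At the brightest, 1435176_a_at, it read 13.34, 13.27 and 13.34 in KO, against 13.32, 13.30 and 13.22 in WT, a difference of 0.04 (95% interval -0.11 to 0.18, limma adjusted p = 0.814). At 1422537_a_at the KO values of 12.71, 12.72 and 12.73 all lay under the WT values of 12.81, 12.82 and 12.76. That difference was only -0.08 (limma adjusted p = 0.528), and 1453596_at gave -0.02.

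Runx1 was measured by 6 probe sets, of which 3 had a higher and 3 a lower mean in KO. The brightest, 1422864_at, read 9.53, 9.59 and 9.34 in KO, against 9.42, 9.70 and 9.55 in WT. The genotypes overlapped, with a difference of -0.07 (95% interval -0.29 to 0.14, limma adjusted p = 0.731). The 6 differences ran from -0.23 (1452531_at) to 0.10 (1440878_at), with overlap at each and limma adjusted p between 0.363 and 0.997.

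For the brightest probe sets of these 7 genes, the 95% intervals of the difference all lay between -0.29 and 0.30 on the log2 scale. Smaller changes lie inside these intervals, so the missing calls do not show that the levels were alike. Over all 16 probe sets the intervals ran from -0.52 to 0.44, and only that of Cebpd 1456605_at left out 0.

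**Figure D4:**
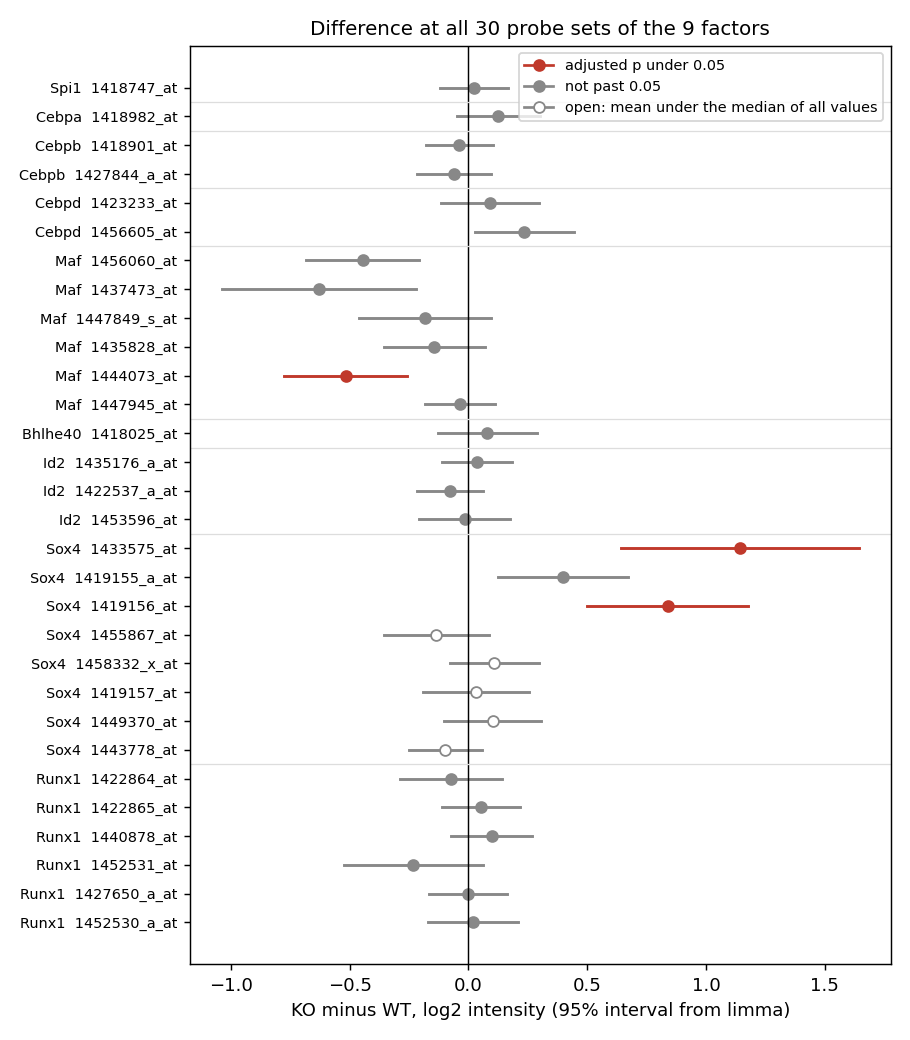
KO minus WT difference with its 95% interval from limma, in log2 intensity, at all 30 probe sets of the 9 factors; red marks a limma adjusted p under 0.05 and open circles a mean under the median of all values. The red points are 1433575_at and 1419156_at of Sox4, at 1.14 and 0.84, and 1444073_at of Maf, at -0.52.

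Structural relatives of the 9 factors were examined with 1 probe set a gene, the brightest. Among 16 such genes there were 2 rises and 1 fall, with no call at 13, against 4.90% of all genes called, and their median was -0.02. The genotypes did not overlap at 7 of the 16, against 31.9% of all genes. Spib, an ETS-family relative of PU.1 found in B cells and plasmacytoid dendritic cells, read 6.95, 7.41 and 6.78 in KO, against 6.22, 6.13 and 6.50 in WT. The genotypes did not overlap, and the rise was 0.76 (SE 0.16, limma adjusted p = 0.0363). Id1, which like Id2 blocks E proteins, rose by 0.40 (SE 0.08, limma adjusted p = 0.0337). Mafk, a small Maf protein without an activation domain, had KO values of 8.73, 8.58 and 8.86, against 9.16, 9.29 and 9.15 in WT, and fell by 0.47 (SE 0.09, limma adjusted p = 0.0257). Sox11, a close relative of Sox4, was dim and lay at -0.36 without passing (limma adjusted p = 0.0956), or at -0.14 with its probe sets averaged. KO replicate 2 was again the highest array for Spib and the lowest for Mafk.

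Binding partners of the 9 factors were Cbfb for Runx1, the E proteins for Id2, AP-1 and ATF proteins for the leucine zipper factors, and Gata1, Gata2 and Myb. Of 14, limma called 1, a fall, against 4.90% of all genes called, and the median was -0.05. An unadjusted p under 0.05 was reached by 1 higher and 2 lower genes of the 14, against 23.4% of all genes. Tcf4, the E protein of plasmacytoid dendritic cells, read 8.67, 8.63 and 8.90 in KO, against 9.23, 9.57 and 9.10 in WT. It fell by 0.57 (SE 0.12, limma adjusted p = 0.0424), with WT replicate 2 the highest array. Tcf3, the E protein E2A, was 0.24 higher by mean without passing (limma adjusted p = 0.0736), and Cbfb differed by 0.08 (limma adjusted p = 0.514).

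Of 31 other myeloid regulators, which are transcription factors apart from the RNA-binding protein Zfp36, 2 rose, 0 fell and 29 did not pass (limma's unadjusted p was under 0.05 at 8 higher and 5 lower genes). Over all genes 4.90% were called and 23.4% had such an unadjusted p, and the median of the 31 was 0.02. Vdr, the vitamin D receptor, read 7.87, 8.18 and 7.86 in KO, against 7.37, 7.31 and 7.55 in WT, and rose by 0.56 (SE 0.10, limma adjusted p = 0.0269). Batf3, an AP-1 relative needed for cross-presenting dendritic cells and itself one of the dendritic cell markers above, read 8.50, 8.69 and 8.21 in KO, against 7.96, 7.95 and 7.92 in WT. It rose by 0.53 (SE 0.11, limma adjusted p = 0.0382). Nr4a3, an orphan nuclear receptor, lay 0.89 above WT with a wide spread at the brightest of its 3 probe sets (SE 0.23, limma adjusted p = 0.0666), but 0.24 above with the 3 averaged (limma adjusted p = 0.330). Zeb2, a repressor of the zinc-finger class, had a difference of -0.28 (limma adjusted p = 0.0785), or -0.17 with its probe sets averaged.

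The calls on these relatives, partners and other regulators rested on few arrays. Those on Spib, Tcf4 and Vdr were lost without KO replicate 1, KO replicate 2, WT replicate 1 or WT replicate 2. Those on Mafk and Batf3 were lost without these or WT replicate 3, and that on Id1 without these 4 or KO replicate 3. Where lost, limma adjusted p lay between 0.0517 and 0.136.

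**Figure D5:**
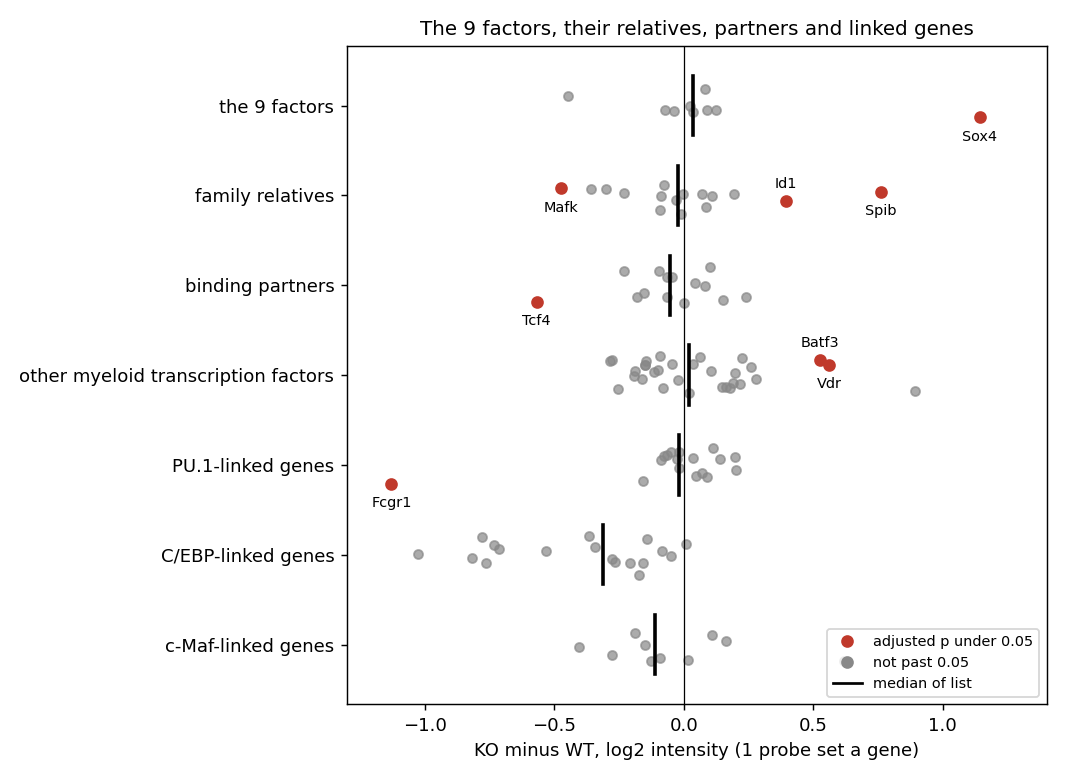
KO minus WT difference in log2 intensity for 1 probe set of each gene in 7 lists; red marks a limma adjusted p under 0.05 and the black bar a list's median. Calls are few and lie on both sides of 0, and the C/EBP-linked list has the lowest median, -0.31.

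Genes known to be controlled by PU.1 gave 1 call among 17, a fall, against 4.90% of all genes called, with a median of -0.02. The list shares 6 of its 17 genes with the macrophage markers above. The fall was that of Fcgr1, one of these 6 and the high-affinity IgG receptor, which interferon also induces. It read 10.95, 10.48 and 11.37 in KO, against 12.00, 12.23 and 11.96 in WT, a difference of -1.13 (SE 0.19, limma adjusted p = 0.0227). That call was lost without KO replicate 1, WT replicate 1 or WT replicate 2 (limma adjusted p of 0.0561 to 0.0936). Csf1r, a classic PU.1 target, differed by -0.02 (limma adjusted p = 0.898), and Tlr4, the endotoxin receptor, by 0.20 (limma adjusted p = 0.133).

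The list of 18 genes linked to C/EBP proteins was, like the others, chosen with earlier results of these data known. Of these genes, 17 had a lower mean in KO. Their median was -0.31, against 0.01 over all genes, although 0 passed limma's threshold. At an unadjusted p from limma under 0.05, 11 were lower and 0 higher, against 8.15% and 15.2% of all genes. Without KO replicate 3, 7 of them passed, all lower, against 2.20% of all genes called lower in that fit. With any other array left out, 0 passed. Camp, the gene of an antimicrobial granule peptide, read 9.55, 8.62 and 9.95 in KO, against 10.45, 10.12 and 10.62 in WT. The genotypes did not overlap, and the difference was -1.03 (SE 0.28, limma adjusted p = 0.0834). Saa3, an acute-phase protein gene, read 10.26, 9.62 and 10.58 in KO, against 10.93, 11.28 and 10.69 in WT, a difference of -0.82 (SE 0.23, limma adjusted p = 0.0842). Nos2, the inducible nitric oxide synthase gene, lay at -0.28 (limma adjusted p = 0.0665) and S100a8, a calcium-binding protein gene of neutrophils, at -0.53 (limma adjusted p = 0.101). Without KO replicate 2, Camp lay at -0.65 (limma adjusted p = 0.113) and S100a8 at -0.345 (limma adjusted p = 0.204).

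That list shares 8 of its 18 genes with the neutrophil markers, among them Camp, Ltf, Lcn2, S100a8 and S100a9. The 8 shared genes had a median of -0.62 and the other 10 a median of -0.23, with 9 of the 10 lower by mean. KO replicate 2 was the lowest array in both lists, at -0.49 for the C/EBP-linked genes and -0.54 for the neutrophil markers. The genes of the C/EBP proteins themselves gave no call, as described above, and the part of neutrophil number in these values was not tested.

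Of 10 genes linked to c-Maf, 0 passed limma's threshold (at an unadjusted p under 0.05, 2 were higher and 2 lower, against 23.4% of all genes in either direction), and the median was -0.11. Il10, the best-known target of c-Maf, was dim, with 3.78, 3.66 and 3.88 in KO, against 4.13, 3.96 and 4.06 in WT. The KO values all lay lower, and the difference was -0.28 (SE 0.08, limma adjusted p = 0.0920), at a level under the 20th percentile of all values in both means, and -0.018 with values raised to that floor. Il12b, which c-Maf represses, read 8.01, 8.27 and 7.61 in KO, against 7.27, 7.28 and 7.50 in WT. Its difference of 0.62 (SE 0.15) missed the threshold (limma adjusted p = 0.0555). The complement genes C1qa, C1qb and C1qc lay at -0.09, -0.12 and -0.15 (limma adjusted p of 0.410 to 0.580), and Mrc1, the mannose receptor gene, at 0.16 (limma adjusted p = 0.221).

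Over the 6 arrays, the pattern closest to the brightest Sox4 probe set was that of Ivns1abp, a kelch-domain protein gene (Pearson's r = 0.998), followed by Pold1, the catalytic subunit of DNA polymerase delta (r = 0.996), among 1700 genes above the median level with an SD of at least 0.2. Ivns1abp averaged 11.11 ± 0.14 in KO and 10.69 ± 0.15 in WT (SD, n = 3 each), with KO replicate 2 highest and WT replicate 2 lowest. The closest to the brightest Maf probe set were B430306N03Rik (r = 0.999) and 1600014C10Rik (r = 0.994), 2 genes known here by clone name. B430306N03Rik read 10.49, 10.22 and 10.50 in KO, against 10.70, 10.99 and 10.76 in WT. These r values are a description over 6 arrays, which share the split by genotype.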

How the data were processed

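Total RNA of 6 cultures, 3 KO and 3 WT, was amplified from the 3' end, labelled with biotin and put on 1 Affymetrix array per culture, per the labels' protocols. The deposited values are log2 intensities, 1 per probe set and array, a scale read from their range. Per the submitters' processing notes, GCRMA 2.30.0, RMA, limma 3.14.4 and affy 1.36.1 were used, in roles not given in the sources used here; the 2 summary methods differ in how far they pull down dim probe sets.

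Of 45101 probe sets, 64 controls were left out and 45037 tested, with no filter. Symbols came from the platform's annotation, updated through gene identifiers: 9160 probe sets were unnamed here, 932 matched several genes and 34945 matched 1. Where 1 probe set stood for a gene, it was the brightest of its probe sets (18193 genes). KO was compared with WT in R 4.3.3 by limma 3.58.1 (lmFit, then eBayes, genotype alone), and p-values were adjusted by Benjamini-Hochberg across every probe set tested, calling those under 0.05. SEs and 95% intervals use eBayes variances (prior degrees of freedom 5.04). Differences are KO minus WT.

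The members and lists were chosen with earlier results of these data known. The named genes are the 9 factors with all probe sets, Fabp5, up to 4 genes of smallest p from each other list, and the 2 genes of highest r with each called factor; Cbfb, Csf1r, the C1q genes and the list members named without values lie outside that rule and were named for their role, and the marker genes named (Fscn1, Mertk, Hdc, Kit, Flt3 and 4 fibroblast genes) were chosen after their values were seen. Same-numbered replicates are not stated to share an animal or day, and the deviations of same-numbered arrays correlated at -0.06, -0.04 and -0.13, so no pairing was used. Promoters came from a RefSeq table (GRCm38.p6). Figures were drawn with matplotlib 3.10.9.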

Additional observations from a re-analysis of the deposited data

How the results depend on the processing

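Every direction of the 3 called probe sets, and of Spib, Id1, Mafk, Tcf4, Vdr, Batf3 and Fcgr1, held under each alternative run; the calls did not. The count of called probe sets among the 30 was 3 in the fit reported and 4 with above-median probe sets only. It was 0 with a floor at the 20th percentile, 0 with the replicate block, and 0 to 3 when an array was left out. It was 0 without KO replicate 1, KO replicate 2 or WT replicate 2. Without WT replicate 1 it was 1, Maf 1437473_at, which the fit reported did not call. Over all probe sets the count was 1691, and 2692 with above-median probe sets only, 3126 with trend and robust eBayes, 71 with the floor, 92 with the replicate block, and 40 to 1360 with an array left out. The cause was not tested. With the replicate block, the limma adjusted p was 0.0803 and 0.0667 for Sox4 (1433575_at and 1419156_at) and 0.103 for Maf (1444073_at). The numbers are not known to pair the arrays, and the block spends 2 degrees of freedom. With trend and robust eBayes, Sox4 1433575_at lost its call (0.103) and 1419156_at kept it (0.0110).

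List counts moved as follows. Relatives, 3 called, gave 0 with the floor and with the replicate block, and 0 to 2 with an array left out. Partners, 1 called, gave 2 with above-median probe sets, 0 with the floor and the block, and 0 to 1 with an array left out. Other regulators, 2 called, gave 0 with the floor and the block, 1 after quantile normalization, 5 with trend and robust eBayes, and 0 to 3 with an array left out. PU.1-linked genes, 1 called, gave 0 with the floor, the block, and trend and robust eBayes, and 0 to 1 with an array left out. C/EBP-linked genes, 0 called, gave 1 with above-median probe sets, with probe sets averaged per gene and with the block. They gave 7 without KO replicate 3 and 0 with any other array left out. c-Maf-linked genes, 0 called, gave 1 with above-median probe sets, probe sets averaged per gene, median centring, and trend and robust eBayes, and 0 to 1 with an array left out.

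Signs turned only at uncalled differences near 0. These were Id2 with its probe sets averaged (-0.0192), Runx1 1422865_at (-0.0034) and 1452530_a_at (-0.0032) after quantile normalization, and Runx1 1427650_a_at after median centring (0.0102). With an array left out, the ranges that crossed 0 were -0.0161 to 0.134 for Bhlhe40 1418025_at, -0.0883 to 0.023 for Id2 1453596_at, -0.037 to 0.0586 for Runx1 1427650_a_at, -0.0508 to 0.0799 for Runx1 1452530_a_at and -0.0736 to 0.112 for Sox4 1419157_at. Background signal was not analysed here, so how far dim probe sets stand above it is unknown.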
